A study of Mus musculus with 6 samples.

Results

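The genes described here make up the microRNA and endogenous small interfering RNA (endo-siRNA) machinery: Drosha, Dgcr8, Xpo5, Dicer1, Tarbp2 and the Argonautes Ago1, Ago2, Ago3 and Ago4. They were chosen by name, for their place in the pathway, and are 9 of the 21310 genes in the deposited mRNA table, in which each of the 9 was found. The mRNA came from testicular pachytene spermatocytes, germ cells in which paired chromosomes recombine, with 1 library from Alkbh1-/- mice and 1 from wild type (WT) mice. The Alkbh1-/- line was made by deleting exon 6 of Alkbh1, and its heterozygotes were backcrossed to C57/BL6. No source used here gives the age or the number of animals behind a library. RNA over 200 nt (1.6 µg from Alkbh1-/- and 1 µg from WT) was selected with oligo(dT) and read as 75 bp paired ends after 15 PCR cycles. The other 4 of the series' 6 libraries hold small RNA summed over genomic clusters, with no value per gene, and were not used here.

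In animals, a microRNA starts as a hairpin in a long primary transcript. The nuclease Drosha and its RNA-binding partner Dgcr8 cut the hairpin out in the nucleus, Xpo5 (exportin 5) carries it to the cytoplasm, and Dicer1, helped by Tarbp2, trims it to a short duplex, of which an Argonaute protein keeps one strand as a guide. Endo-siRNAs skip Drosha: Dicer1 cuts them from long double-stranded RNA, best known from mouse oocytes. Loss of Dicer1 in mouse germ cells is known to impair spermatogenesis. piRNAs, the most abundant small RNAs of pachytene spermatocytes, are bound by PIWI proteins and made without Dicer1.

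The libraries held 10229260 counts in Alkbh1-/- and 8222671 in WT. Alkbh1 itself had 20.2 CPM (counts per 1000000 scaled counts of the library) in Alkbh1-/- and 21.0 CPM in WT, but counts summed over all its exons cannot check the loss of exon 6. Of 11 pachytene markers, 10 were in the table, and 0 of these differed 1.5-fold. They summed to 10688 CPM in Alkbh1-/- and 11542 CPM in WT, with Ldhc (4234 CPM in Alkbh1-/- and 4918 CPM in WT) and Hspa2 (2267 CPM in Alkbh1-/- and 2270 CPM in WT) the highest. Somatic RNA differed between the libraries. Of 12 Sertoli markers, 11 were 1.5-fold or more below WT in Alkbh1-/- and 0 above it, summing to 1575 CPM in Alkbh1-/- and 3187 CPM in WT, led by Clu (957 CPM in Alkbh1-/- and 1847 CPM in WT) and Amhr2 (223 CPM in Alkbh1-/- and 459 CPM in WT). Leydig markers, led by Nr5a1 and Cyp17a1, summed to 163 CPM in Alkbh1-/- and 121 CPM in WT (4 of 6 that far above WT and 1 below). These 2 leading markers went opposite ways. Nr5a1 was the marker below (ratio 0.450, interval 0.382 to 0.530), and Cyp17a1 was above (ratio 2.20, interval 1.90 to 2.56). Spermatid markers, led by Tnp2 and Prm2, summed to 1584 CPM in Alkbh1-/- and 1285 CPM in WT (5 of 10 were 1.5-fold or more above WT and 0 that far below). Of the 10, 7 had intervals above 1, with Prm2 at a ratio of 1.64. The intervals of 2 lay below 1, those of Tnp1 (ratio 0.785) and Tnp2 (0.907). Spermatogonial markers, led by Uchl1 and Dmrt1, summed to 140.0 CPM in Alkbh1-/- and 140.2 CPM in WT, but went both ways: 2 of 7 were that far above WT and 0 below. These were Kit (ratio 2.11, interval 1.67 to 2.68) and Stra8 (1.71, interval 1.19 to 2.50), named after their values were seen, against ratios of 0.681 for Uchl1 and 0.755 for Dmrt1. Peritubular myoid markers, led by Tagln and Myh11, summed to 25.3 CPM in Alkbh1-/- and 14.3 CPM in WT (2 of 3 above and 0 below, with a median log2 ratio of 0.87). Endothelial markers, led by Vwf and Cdh5, summed to 27.4 CPM in Alkbh1-/- and 26.4 CPM in WT, with 1 of 3 above (Tek, ratio 2.75, likewise named after its value was seen) and 1 below (Cdh5, ratio 0.538). Macrophage and blood markers, led by Lyz2 and Adgre1, summed to 4.93 CPM in Alkbh1-/- and 3.93 CPM in WT, with Hbb-bs at 0 in Alkbh1-/- and Hba-a1 at 0 in WT. The part of these differences in the results below was not tested. With 1 library a genotype, genotype and preparation cannot be told apart, and fewer cells of a type cannot be told from less RNA per cell.

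No gene of the machinery differed by as much as 1.5-fold between the libraries. All 9 passed the floor of 5 CPM in at least 1 library, and all 9 lay within 1.5-fold, as did 83.2% of the 12189 genes over the floor and 85.9% of the 8371 with summed counts in the range of the 9 (222 to 4269). None was 1.5-fold or more above WT, beside 8.06% of all genes, and none that far below, beside 8.79%. Genes past 2-fold made up 1.80% of all genes on the higher side and 2.71% on the lower. At a 25% increase, 2 of 9 (Drosha and Ago1) passed on the higher side, beside 18.1% of all genes, and 0 of 9 on the lower side at the same fold, beside 18.0%. The 9 genes summed to 645 CPM in Alkbh1-/- and 653 CPM in WT, a ratio of 0.988 with a 95% interval of 0.953 to 1.02. This interval, like those of the other ratios, is exact (Clopper-Pearson) and covers counting error only, and no replicate checks any of these differences. Of the 9 genes, 6 had a log2 ratio above 0 (log2 ratios carry a pseudocount of 1 CPM), beside 47.9% of all genes and 48.2% of those in the same count range. Their median log2 ratio was 0.16, beside -0.02 over all genes. CPM is a level relative to the library total and not to transcript length, so levels of different genes are not compared.

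**Figure D1:**
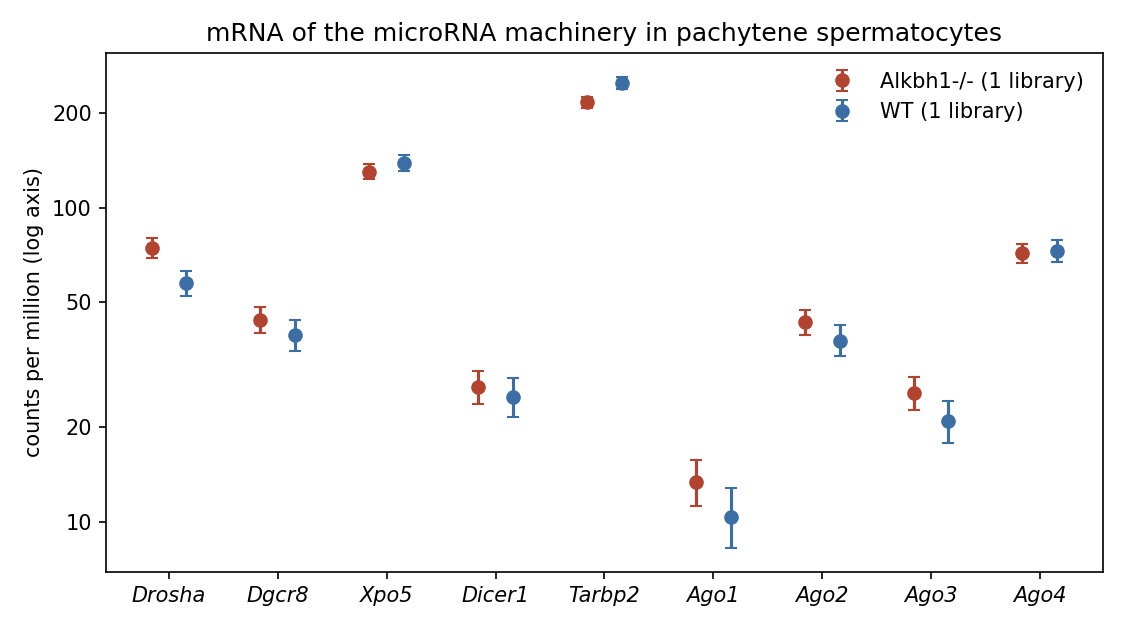
Level of each of the 9 genes in CPM (log axis) in the Alkbh1-/- library (left of each pair) and the WT library (right), with exact Poisson 95% intervals that cover counting error only. The intervals of Drosha and of Tarbp2 are apart between the libraries, on opposite sides, and those of the other 7 genes overlap.

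Drosha, the nuclease of the nuclear step, had the highest ratio of the 9. It had 769 counts in Alkbh1-/- and 467 in WT, or 74.4 CPM (95% Poisson interval 69.2 to 79.8) in Alkbh1-/- against 57.4 CPM (52.3 to 62.9) in WT. The ratio was 1.30 (interval 1.15 to 1.46), and 84.1% of all genes had a lower log2 ratio. Its partner Dgcr8 had 454 counts in Alkbh1-/- and 319 in WT, or 43.9 CPM (40.0 to 48.1) against 39.2 CPM (35.0 to 43.8) in WT. The interval of its ratio of 1.12 held 1 (0.968 to 1.30). Both subunits were thus higher in the Alkbh1-/- library by their point values, Drosha by more than its counting error and Dgcr8 not. Per count of Dgcr8 there were 1.69 counts of Drosha in Alkbh1-/- and 1.46 in WT, a quotient 1.16-fold higher in Alkbh1-/- whose exact conditional interval held 1 (0.959 to 1.40). Such a quotient within a library needs no scaling between libraries.

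Dgcr8 is itself known to carry hairpins that Drosha cuts, in mouse and human cells, which ties the level of its mRNA to the activity of the complex. RefSeq (GRCm38.p6) places 2 microRNA genes inside Dgcr8 on its own strand. Their mature arms are shown because they mark where the machinery's own transcript is a substrate, with the seed (bases 2 to 8), which pairs with targets, in capitals.
mmu-miR-3618-5p (chr16:18284602-18284623, minus strand): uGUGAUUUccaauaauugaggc
mmu-miR-3618-3p (chr16:18284562-18284583, minus strand): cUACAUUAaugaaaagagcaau
mmu-miR-1306-5p (chr16:18284288-18284310, minus strand): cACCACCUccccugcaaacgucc
mmu-miR-1306-3p (chr16:18284248-18284268, minus strand): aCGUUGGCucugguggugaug
Neither microRNA gene has a row of its own in the counts used here, so hairpin reads, if any, cannot be set apart from those of Dgcr8. Xpo5 is the only other of the 9 genes whose span holds an annotated microRNA gene, Mir693.

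Xpo5, the exporter of the hairpins, had 1347 counts in Alkbh1-/- and 1131 in WT. Its level was 130 CPM (123 to 137) in Alkbh1-/- and 139 CPM (131 to 147) in WT. The ratio of 0.937 had an interval of 0.865 to 1.02, which holds 1, so a difference was not detectable at this depth.

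Dicer1, the nuclease shared by microRNAs and endo-siRNAs, had 277 counts in Alkbh1-/- and 203 in WT, or 26.8 CPM (23.7 to 30.1) in Alkbh1-/- and 25.0 CPM (21.6 to 28.6) in WT. Its ratio was 1.07 (0.893 to 1.29), so a difference was not detectable at this depth. Tarbp2, the double-stranded RNA-binding partner of Dicer1, also known in mouse testis as protamine RNA-binding protein for its part in protamine translation, was the lowest of the 9 by ratio. It had 2234 counts in Alkbh1-/- and 2035 in WT, or 216 CPM (207 to 225) in Alkbh1-/- against 250.1 CPM (239 to 261) in WT. The ratio of 0.864 had an interval below 1 (0.813 to 0.918), and 26.5% of all genes had a lower log2 ratio. Per count of Tarbp2 there were 0.124 counts of Dicer1 in Alkbh1-/- and 0.0998 in WT, 1.24-fold higher in Alkbh1-/- (1.02 to 1.51). Prkra (PACT), the paralog of Tarbp2 that also binds Dicer, was lower as well, at 31.3 CPM in Alkbh1-/- and 49.4 CPM in WT (ratio 0.634, interval 0.546 to 0.736). Tarbp2 and Prkra were thus both lower in the Alkbh1-/- library, Prkra by more than Tarbp2. There were 6.90 counts of Tarbp2 per count of Prkra in Alkbh1-/- and 5.06 in WT, 1.36-fold higher in Alkbh1-/- (1.16 to 1.60). Adarb1, an RNA-editing enzyme listed below with the Dicer partners but not shown here to be one of them, was higher (ratio 1.85). The span of Tarbp2 overlaps that of Map3k12 (334 counts in Alkbh1-/- and 279 in WT), and the span of Dgcr8 overlaps Trmt2a (64 counts in Alkbh1-/- and 45 in WT). No source used here says whether counting used strand, so reads in such overlaps may be shared.

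Drosha and Tarbp2 lie at the ends of the range, and their promoters are shown to set these side by side. The sequences are from RefSeq (GRCm38.p6), from 250 bases before to 50 after the annotated start, with CCAAT boxes on either strand (CCAAT, or ATTGG where it lies on the other strand) in capitals.
Drosha promoter (chr15:12824565-12824864, plus strand): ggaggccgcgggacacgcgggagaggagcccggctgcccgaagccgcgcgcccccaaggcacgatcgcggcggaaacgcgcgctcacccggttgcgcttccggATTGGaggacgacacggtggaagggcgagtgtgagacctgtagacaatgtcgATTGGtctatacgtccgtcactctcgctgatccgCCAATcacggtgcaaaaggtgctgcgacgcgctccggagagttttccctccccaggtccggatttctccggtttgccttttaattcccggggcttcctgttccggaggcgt
Tarbp2 promoter (chr15:102517942-102518241, plus strand): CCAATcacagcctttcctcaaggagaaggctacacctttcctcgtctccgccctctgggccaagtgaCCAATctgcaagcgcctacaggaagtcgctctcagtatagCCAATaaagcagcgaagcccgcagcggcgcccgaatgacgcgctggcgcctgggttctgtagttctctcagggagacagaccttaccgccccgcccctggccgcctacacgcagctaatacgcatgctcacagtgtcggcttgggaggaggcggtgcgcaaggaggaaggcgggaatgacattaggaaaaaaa
Each window holds 3 CCAAT boxes, and their part in the mRNA levels was not tested. CCAAT was present in 5 of the 8 genes with a promoter in the table (Ago1, Dgcr8, Dicer1, Drosha and Tarbp2), and in 37.4% of all 32851 promoters, on either strand. The GC box, GGGCGG, was present in 7 of 8 and in 35.7% of all promoters, with Drosha the exception, and no GC box overlapped a CCAAT box in the windows shown. The TATA box, TATAAA, was in 0 of 8 and in 13.6% of all promoters. The NRF1 core, GCATGCGC, was in Xpo5 alone of the 8 and in 2.71% of all promoters. GC content was 64.3% for Drosha and 59.0% for Tarbp2, the lowest of the 8 genes, against a median of 52.7% over all promoters, and reached 83.3% for Ago4. The motifs were picked after the promoters had been read, and a match is a description of the sequence only.

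The Argonautes hold the guide strand. Ago2 is the one known to cut its targets in mammals, and mouse germ cells without Ago4 are known to enter meiosis early and to silence their sex chromosomes poorly. Ago1 had 138 counts in Alkbh1-/- and 84 in WT, or 13.3 CPM (11.2 to 15.8) in Alkbh1-/- and 10.3 CPM (8.24 to 12.8) in WT, a ratio of 1.29 (0.979 to 1.72). Ago1 had the fewest counts and the widest interval, the only one of the 9 that reached past 1.5-fold. Ago2 had 446 counts in Alkbh1-/- and 307 in WT, or 43.1 CPM (39.2 to 47.3) in Alkbh1-/- and 37.7 CPM (33.6 to 42.2) in WT, a ratio of 1.14 (0.986 to 1.33). Ago3 had 265 counts in Alkbh1-/- and 170 in WT, or 25.6 CPM (22.6 to 28.9) in Alkbh1-/- and 20.9 CPM (17.9 to 24.3) in WT, and the interval of its ratio of 1.23 began just above 1 (1.008 to 1.496). Ago4 had 739 counts in Alkbh1-/- and 593 in WT, or 71.5 CPM (66.4 to 76.8) in Alkbh1-/- and 72.9 CPM (67.1 to 79.0) in WT. Its ratio was 0.981 (0.879 to 1.09), and it turned to 1.00 with library totals only and 1.04 with scaling to the pachytene markers, the last chosen after seeing the data. So Ago1, Ago2 and Ago3 had point values above WT by 1.14-fold to 1.29-fold, while Ago4 was level with WT.

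Ago3, Ago1 and Ago4 are direct neighbours, in this order, among the protein-coding genes of chromosome 4 in RefSeq, and Ago2 lies apart on chromosome 15. The ratios of Ago1 and Ago3 lay above that of Ago2, and the ratio of Ago4 lay below it. Ago4 took 46.5% of all Argonaute counts in Alkbh1-/- (exact binomial interval 44.1 to 49.0) and 51.4% in WT (48.5 to 54.3). Ago2 took 28.1% in Alkbh1-/- (25.9 to 30.4) and 26.6% in WT (24.1 to 29.3). Ago3 took 16.7% in Alkbh1-/- and 14.7% in WT, and Ago1 took 8.69% in Alkbh1-/- and 7.28% in WT. These shares are not corrected for transcript length and serve only to compare the libraries. Counts of Ago1, Ago2 and Ago3 per count of Ago4 were 1.32-fold (0.976 to 1.79), 1.17-fold (0.969 to 1.40) and 1.251-fold (0.997 to 1.57) higher in Alkbh1-/-, and each interval held 1. Summed, the Argonautes had 154 CPM in Alkbh1-/- and 142 CPM in WT, a ratio of 1.08. Its interval began just above 1 (1.003 to 1.169) and was computed with TMM scaling only. The Argonautes are paralogs of similar sequence, and no source used here says how reads that match several of them were counted.

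**Figure D2:**
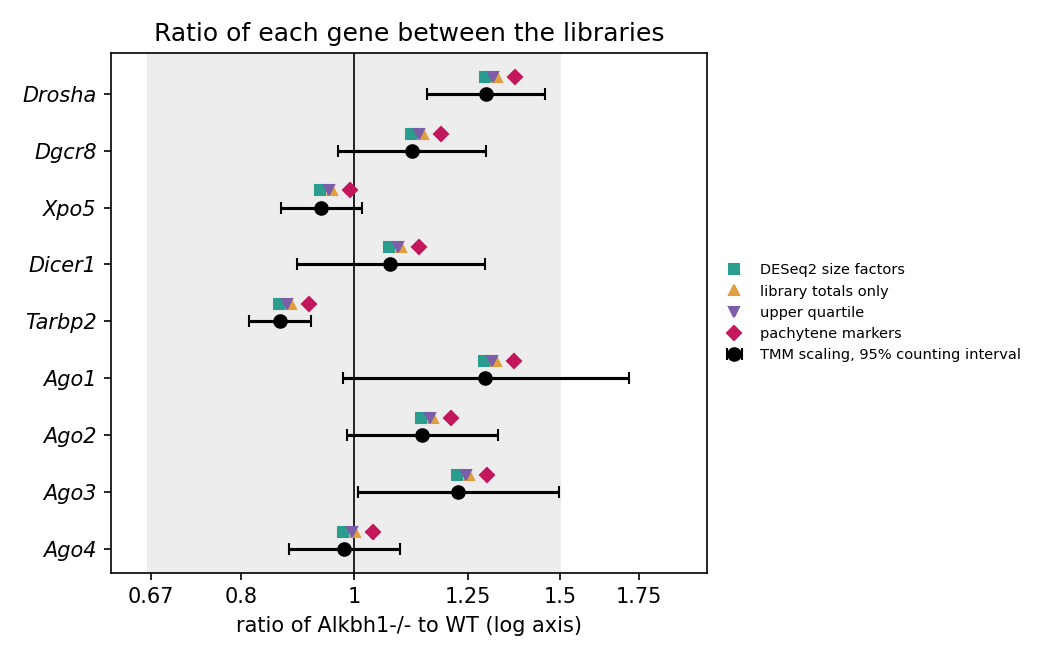
Ratio of Alkbh1-/- to WT for each of the 9 genes (log axis), with exact 95% counting intervals (black) and the ratio under 4 other scalings (coloured marks). The grey band spans 1.5-fold either way. Every point lies inside the band, Drosha and Ago3 have intervals above 1, and Tarbp2 has one below 1.

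Which intervals left 1 depended in part on the scaling between libraries. With the trimmed mean of M values (TMM), 2 of 9 intervals lay above 1 (Drosha and Ago3) and 1 below (Tarbp2), where 23.7% of all genes lay above and 26.8% below. Among genes in the same count range, 24.6% lay above and 27.0% below. Intervals above 1 were thus about as common among the 9 genes as among all genes, and the one below 1, that of Tarbp2, made up a smaller share. Ago2 joined the genes above 1 with library totals only and with upper quartile scaling. With scaling to the median pachytene marker, 5 of 9 lay above 1 (Drosha, Dgcr8, Ago1, Ago2 and Ago3) and Tarbp2 remained below (0.915, interval 0.861 to 0.972). That scaling also raised the median log2 ratio of all genes, from -0.02 with TMM to 0.07. The shares of all genes above and below 1 were computed with TMM only. The counts under other scalings thus have no share to set beside them. For 8 of the 9 genes the TMM interval lay wholly inside 1.5-fold. The share of all genes for which this holds was not computed, and an interval narrows with the count of the gene.

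**Figure D3:**
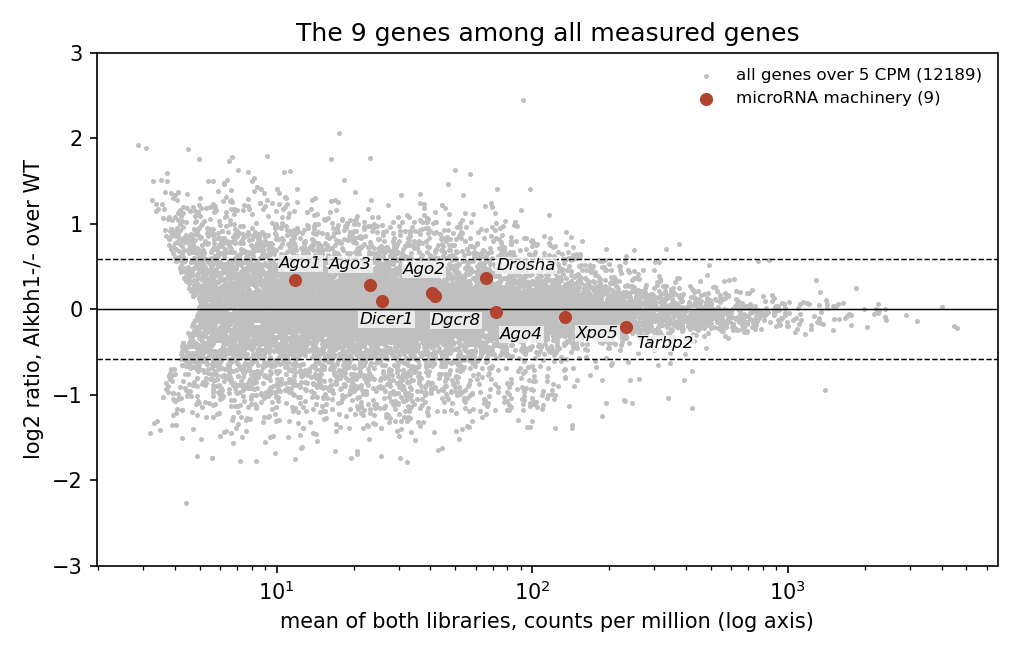
Log2 ratio of Alkbh1-/- over WT (pseudocount of 1 CPM) against the mean of both libraries in CPM (log axis) for the 12189 genes that reached 5 CPM in either library (grey) and the 9 genes of the machinery (red). Dashed lines mark 1.5-fold, and 4 genes lie beyond the vertical axis. The 9 genes lie between -0.21 (Tarbp2) and 0.37 (Drosha), within the body of the grey points.

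The genes nearest to Dicer1 in both libraries, by distance on the log2 CPM scale over the 2 libraries, were Aktip (26.4 CPM in Alkbh1-/- and 24.8 CPM in WT, distance 0.021) and Mcm6 (27.1 CPM in Alkbh1-/- and 25.3 CPM in WT, distance 0.025). Drosha lay nearest to Spcs3 (74.0 CPM in Alkbh1-/- and 57.0 CPM in WT, distance 0.012) and Clmn (73.7 CPM in Alkbh1-/- and 58.1 CPM in WT, distance 0.022). Ago4 lay nearest to Fam129a (71.3 CPM in Alkbh1-/- and 72.9 CPM in WT, distance 0.0039) and Cpsf2 (71.3 CPM in Alkbh1-/- and 73.4 CPM in WT, distance 0.010). With 2 libraries such likeness is a match of level only.

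Around the 9 genes, single cofactors in the lists below differed by more than any of the 9 did. Of all genes, 8.06% were 1.5-fold or more above WT and 8.79% that far below, so single genes past 1.5-fold do not set a list apart. Among the cofactors of the Drosha step, 1 of 15 over the floor was 1.5-fold or more above WT and 0 that far below, with a median log2 ratio of 0.03. That gene was Lin28b, which blocks the maturation of let-7 microRNAs, with 293 counts in Alkbh1-/- and 104 in WT, or 28.3 CPM against 12.8 CPM in WT (ratio 2.22, interval 1.77 to 2.80). Of the spermatogonial markers given above, Kit and Stra8 were higher as well, while Uchl1 and Dmrt1 were lower. That list summed to 140.0 CPM in Alkbh1-/- and 140.2 CPM in WT. The part of spermatogonial RNA in the value of Lin28b was not tested. Hnrnpa1 had a log2 ratio of 0.20, and Adar (-0.23), Ncbp1 (-0.23) and Srsf3 (-0.19) were the lowest. Ddx5, the helicase of the Drosha complex and the most counted of the list, was at 606 CPM in Alkbh1-/- and 604 CPM in WT. Of 5 genes of nuclear export with Xpo5 (the Ran cycle and the pore protein Nup153), 0 differed 1.5-fold, and the median log2 ratio was 0.08. The GTPase Ran had 263 CPM in Alkbh1-/- and 267 CPM in WT, and the log2 ratios were 0.11 for Rcc1, 0.10 for Rangap1, 0.08 for Nup153 and -0.17 for Ranbp1.

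The next list holds Dicer partners, the chaperones that load Argonautes and other RNA factors. In it, 1 of 12 was at least 1.5-fold higher, beside 8.06% of all genes. On the lower side were 2 of 12, beside 8.79% of all genes, and the median log2 ratio was -0.07. The lower count was 1 with library totals only and with upper quartile scaling, which left Prkra past 1.5-fold and not Hspa8, and 0 with a pseudocount of 5 CPM or with scaling to the pachytene markers. The higher gene was Adarb1, at 26.3 CPM in Alkbh1-/- and 14.3 CPM in WT (ratio 1.85, interval 1.48 to 2.31). It encodes an enzyme that edits double-stranded RNA, and no source used here shows it to be a Dicer partner or a loading chaperone. Prkra and Hspa8, a constitutive heat shock protein (42.8 CPM in Alkbh1-/- and 65.1 CPM in WT, ratio 0.658, interval 0.578 to 0.748), were lower. The Hsp90 helpers Ahsa1 (log2 ratio 0.20) and Stip1 (0.18) followed Adarb1, Hsp90ab1 stood at -0.25, and Fkbp4, the most counted, at -0.06. Among the effectors that silence a bound mRNA, 0 of 26 were at least 1.5-fold higher and 1 lower, beside the same shares of all genes. Their median was -0.03. The lower gene was Mov10, an RNA helicase bound by Argonautes, with 287 counts in Alkbh1-/- and 422 in WT, or 27.8 CPM against 51.9 CPM in WT (ratio 0.535, interval 0.459 to 0.623). The deadenylase Cnot7 (-0.50) and Cnot6l (-0.34) came next, and Lsm14a (0.35), Fmr1 (0.25) and Cnot3 (0.25) were the highest. Pabpc1, the poly(A)-binding protein and the most counted, was at 2131 CPM in Alkbh1-/- and 2207 CPM in WT. Sertoli markers were also lower in Alkbh1-/-, as given above, and their part in the values of Prkra, Hspa8 and Mov10 was not tested.

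Genes that tail or degrade small RNAs lay closest to the 9 genes by their median, 0.15. Of 9 such genes 0 differed 1.5-fold, where 83.2% of all genes lay within 1.5-fold. Dis3l2, the exonuclease that removes uridylated let-7 precursors, had 54.7 CPM in Alkbh1-/- and 42.0 CPM in WT (ratio 1.30, interval 1.14 to 1.49). Tent2 (log2 ratio 0.35) and Parn (0.31) were also among the highest, and Zswim8 (-0.15), the most counted, Eri1 (-0.08) and Tut7 (0.08) the lowest. For comparison, of 17 PIWI and piRNA factors 2 were at least 1.5-fold higher, beside 8.06% of all genes, and 0 lower, beside 8.79%. With a pseudocount of 5 CPM, 1 (Mov10l1) was that far higher. The median log2 ratio of the 17 was 0.08. Pnldc1, which trims piRNAs (0.71), Mov10l1, the piRNA helicase and paralog of Mov10 (0.63), and Tdrd9 (0.32) were the highest, and Tdrd6 (-0.21), the most counted, Henmt1 (-0.17) and Mael (-0.13) the lowest. Mov10 and Mov10l1 thus lay on opposite sides, at 0.535 and 1.55 of WT. Whether the medians of the 2 pathways differ was not tested.

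**Figure D4:**
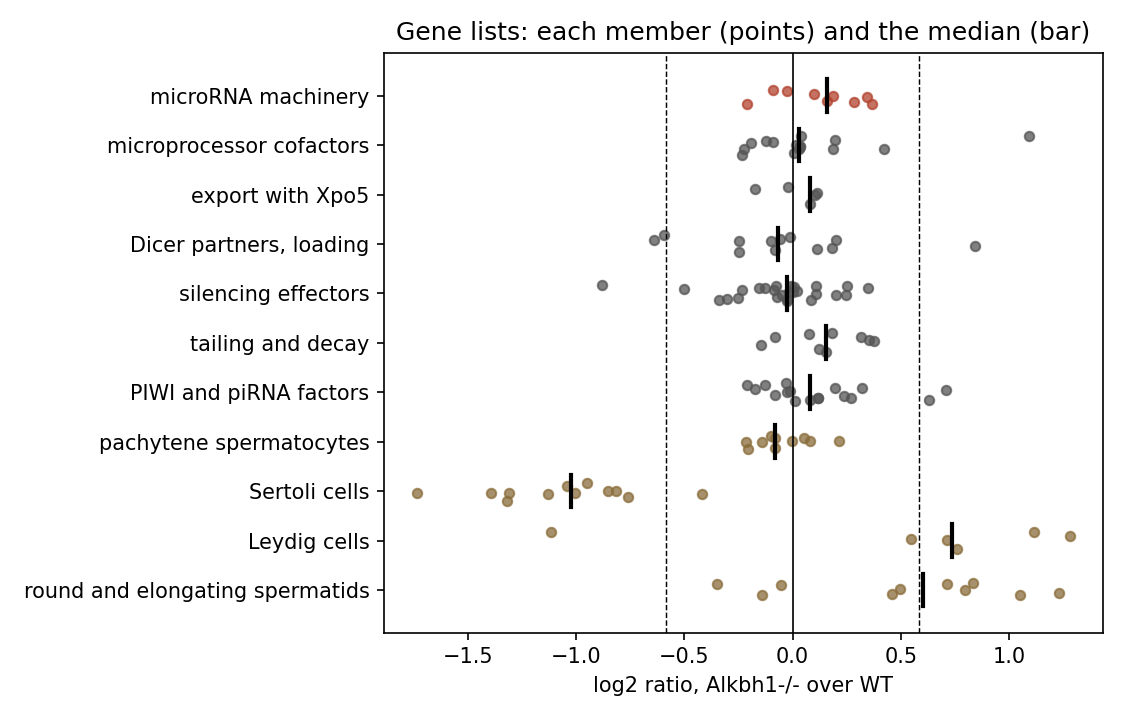
Log2 ratio of Alkbh1-/- over WT for members over 5 CPM of 11 gene lists (points) and the median of the list (bar). The dashed lines mark 1.5-fold, and points are spread vertically for sight only. Of the lists drawn, the 9 genes of the machinery and the 6 pathway lists centre between -0.07 and 0.16, pachytene markers at -0.08, Sertoli markers at -1.02, Leydig markers at 0.74 and spermatid markers at 0.60.

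Among transcripts of microRNA genes, taken by name only, the table holds 31 named Mir and a number, bare hairpins and host transcripts alike. Most had few counts in these poly(A)-selected libraries. Of the 31, 24 had fewer than 10 counts over both libraries, and 2 passed the floor of 5 CPM. Mir17hg, the host transcript of the miR-17 to miR-92a cluster, had 116 counts in Alkbh1-/- and 66 in WT, or 11.2 CPM in Alkbh1-/- and 8.11 CPM in WT (ratio 1.38, interval 1.01 to 1.90). Mir670hg had 124 counts in Alkbh1-/- and 99 in WT, or 12.0 CPM in Alkbh1-/- and 12.2 CPM in WT (ratio 0.986, interval 0.751 to 1.30). Neither differed 1.5-fold. RefSeq (GRCm38.p6) places 6 microRNA genes within 5000 bp of Mir17hg, and 1 arm of each is shown, with the seed in capitals, since these are the products the machinery would make from the transcript that was counted.
mmu-miR-17-5p (chr14:115043684-115043706, plus strand): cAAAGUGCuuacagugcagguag
mmu-miR-20a-5p (chr14:115044183-115044205, plus strand): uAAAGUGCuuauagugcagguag
mmu-miR-18a-5p (chr14:115043867-115043889, plus strand): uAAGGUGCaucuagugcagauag
mmu-miR-19a-3p (chr14:115044048-115044070, plus strand): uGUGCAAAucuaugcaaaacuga
mmu-miR-19b-3p (chr14:115044358-115044380, plus strand): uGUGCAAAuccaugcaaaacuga
mmu-miR-92a-3p (chr14:115044476-115044496, plus strand): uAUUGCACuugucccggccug
The 6 arms fall into 4 groups by seed: miR-17-5p and miR-20a-5p share AAAGUGC, miR-19a-3p and miR-19b-3p share GUGCAAA, and miR-18a-5p and miR-92a-3p each have their own. The mature microRNAs themselves were not analysed here.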

How the data were processed

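The deposited mRNA table holds whole-number counts per Ensembl gene, which the authors did not scale, for 1 Alkbh1-/- and 1 WT library. CASAVA 1.3, Novoalign, TopHat, bedtools and mm9 are named without roles in the submitters' processing notes. No source used here gives the counting settings. Identifiers were matched to symbols in 19848 of 21310 cases (93.1%); Sycp3, Rhox5, Insl3, Ptges3, Cnot9 and Eif4enif1 were not matched and not analysed here.

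Counts were scaled by TMM (edgeR 4.0.16, R 4.3.3) to CPM over all genes. Log2 ratios carry a pseudocount of 1 CPM, which understates changes of low genes; ratios with intervals carry none. Lists were counted among genes that reached 5 CPM in either library. With 1 library a genotype there was no test, and p-values were not computed. Intervals are exact at 95% and cover counting error only: reads copied by PCR carry no molecular identifiers and are not separate molecules. DESeq2 1.42.0 size factors, library totals, upper quartile scaling, other pseudocounts and floors were alternatives; scaling to pachytene markers was added after seeing the data. The ratio and interval code was tested on simulated data. Python 3.11.15, pandas 2.3.3, scipy 1.17.1 and matplotlib 3.10.9 were used. Promoters and microRNAs came from RefSeq tables on GRCm38.p6; Ago2 had no promoter entry. The members and lists were chosen with earlier results of these data known. The text names all 9 genes and Alkbh1, and in each pathway list the 3 highest, the 3 lowest and the most counted gene, of which 1 is not reported here. It also names the 2 markers of highest WT level in each list and the 2 genes nearest to Dicer1, Drosha and Ago4.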

Additional observations from a re-analysis of the deposited data

How the results depend on the processing

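In all, 216 values were recomputed for 39 results, and 208 stayed within their counting interval, within the spread of their list or, for counts and shares of genes, within 1.5 times; the remaining 8 follow. The number of the 9 genes past the threshold on the higher side was 2 with the threshold at a 25% increase, in place of 0 at 1.5-fold. With scaling to the median pachytene marker (ratio 0.945), chosen after seeing the data, 5 intervals lay above 1. The share of all genes above 1 under that scaling was not computed. Among Dicer partners and loading factors, the number at least 1.5-fold lower was 1 with library totals only, 1 with upper quartile scaling and 0 with a pseudocount of 5 CPM. It was also 0 with scaling to the pachytene markers, but the 216 values do not include that scaling for the pathway lists. Among PIWI and piRNA factors, 1 was at least 1.5-fold higher with that pseudocount. Of all genes, 0.994% were at least 2-fold higher with a floor of 20 CPM (1.80% at 5 CPM) and 1.76% at least 2-fold lower with no floor (2.71% at 5 CPM). The cause was not tested. The median log2 ratio of all genes lay between -0.02 and 0.01 under TMM, DESeq2, library total and upper quartile scaling, and was 0.07 with scaling to the pachytene markers. No library could be left out, since each genotype has 1. No paired analysis was possible because each genotype has 1 mRNA library and no test was made. Depth limits Ago1 most, whose interval spans 0.979 to 1.72.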
